A study of Mus musculus with 6 samples.

Results

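The serotonin genes considered here are Tph1, Tph2, Ddc, Slc6a4, Maoa, Maob, Htr2a and Htr2b, which make serotonin, carry it into cells, break it down or bind it. Members were taken by platform gene symbol, and the main probe set of a gene was the one with the highest mean log2 expression over the 6 arrays. A main probe set was found for 7 of these 8 genes, out of 17720 genes measured, and Htr2a was not analysed here. Ddc and Maoa had a second probe set, so the genes were covered by 9 of 43057 probe sets. The members were chosen with earlier results of these arrays known, among them the large difference in Tph2 between bone marrow-derived and white adipocytes, so Tph2 is described without a test.

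The arrays measured RNA from mouse adipocytes in 3 groups of 2 arrays. The bone marrow-derived group held adipocytes of donor origin, sorted out of the gonadal fat of transplanted mice by a marker of the donor marrow, which was GFP (green fluorescent protein) in replicate 1 and LacZ (beta-galactosidase, made visible with the fluorogenic substrate FDG) in replicate 2. The white group held gonadal white adipocytes and the brown group intrascapular brown adipocytes, with 2 replicates each. Each array represents 6 or more pooled sorts of about 5000 cells. Each bone marrow-derived array thus stands for 1 donor marker, and donor marker and replicate cannot be told apart. The promoter that drives either marker and the strain, sex and age of donors and hosts are not given in the sources used here. The sample titles call the replicates biological, and whether they came from separate animals is not stated. The p-values therefore reflect only how far these samples varied, and how much of that is variation between animals is not known.

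Serotonin is made from the amino acid tryptophan in a pair of steps. A tryptophan hydroxylase, Tph1 in most peripheral tissues or Tph2 in serotonergic neurons, adds a hydroxyl group with the help of tetrahydrobiopterin, and the aromatic amino acid decarboxylase Ddc then removes the carboxyl group. The plasma membrane transporter Slc6a4 takes serotonin up, the mitochondrial outer membrane enzymes Maoa and Maob oxidise it, and receptors such as Htr2a and Htr2b pass its signal on through Gq. In mouse fat, peripheral serotonin is known to restrain thermogenesis in brown adipocytes and to favour lipid storage in white adipocytes.

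Sets of marker genes were read on each array as a check of the labels, with values as mean log2 expression over the measured genes of a list. Adipocyte markers averaged 11.8 (GFP) and 11.3 (LacZ) on bone marrow-derived arrays, 12.7 and 12.9 on white arrays and 12.4 and 12.5 on brown arrays, and none of the 8 lay below the lower quartile of an array. Brown adipocyte markers averaged 6.19 and 4.73 on bone marrow-derived arrays, 6.71 and 6.33 on white arrays and 10.9 and 11.1 on brown arrays, which sets the brown group apart as labelled. Endothelial markers averaged 11.4 and 11.96 on bone marrow-derived arrays, 8.38 and 7.36 on white arrays and 10.9 and 10.4 on brown arrays, and 12 of 12 rose in the bone marrow-derived group relative to white by the test used below. By that test 12.2% of all genes rose in the bone marrow-derived group relative to white and 8.71% relative to brown. Macrophage markers averaged 11.4 (GFP) and 8.81 (LacZ) on bone marrow-derived arrays, 11.3 and 9.96 on white arrays and 8.81 and 8.29 on brown arrays, so the GFP array and white replicate 1 stood above the others. Smooth muscle and pericyte markers averaged 9.50 and 10.12 on bone marrow-derived arrays, 8.17 and 8.08 on white arrays and 8.43 and 8.26 on brown arrays. In the bone marrow-derived group 5 of 8 rose relative to white and 4 of 8 relative to brown. Fibroblast and preadipocyte markers averaged 9.91 and 9.79, 9.19 and 8.06, and 7.58 and 6.94 in the same order. Of these, 3 of 10 rose relative to white and 5 of 10 relative to brown. Whether these markers came from other cells or from the sorted adipocytes was not tested. In such RNA, fewer adipocytes and less RNA of a gene per adipocyte cannot be told apart.

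**Figure D1:**
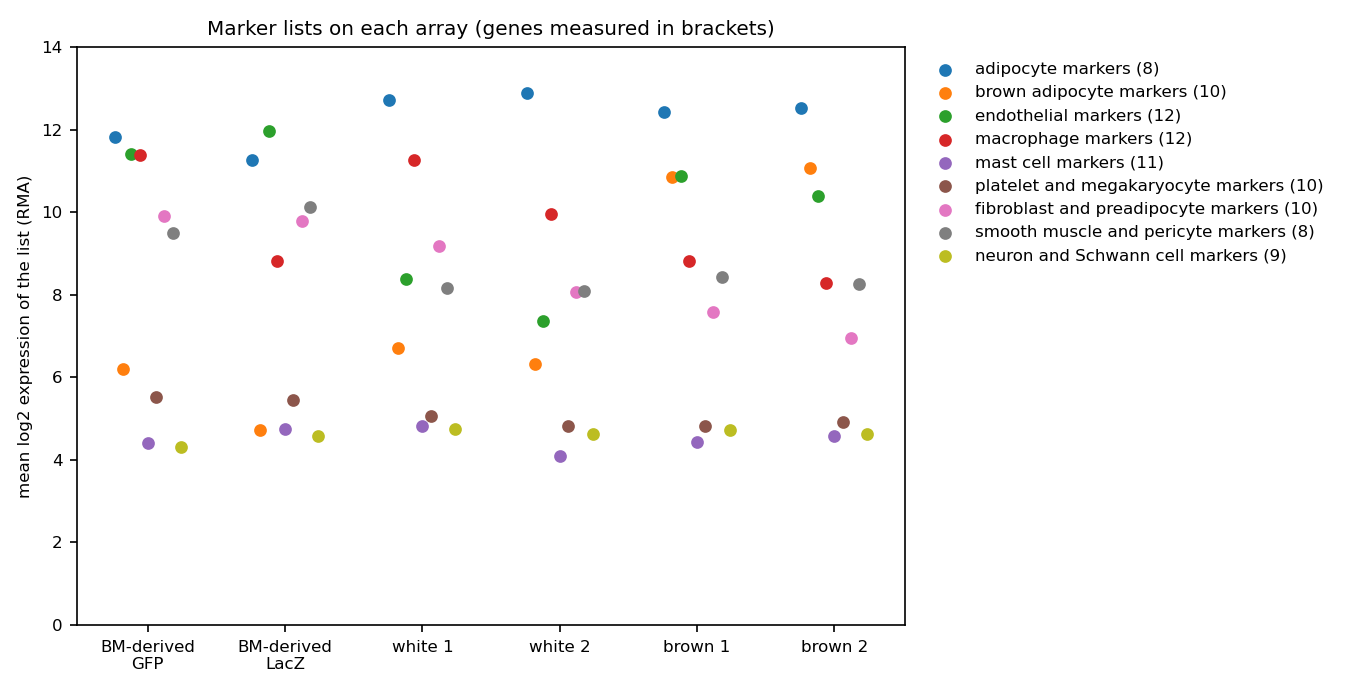
Mean log2 expression of each marker list (vertical axis, RMA scale) on each of the 6 arrays (horizontal axis), 1 point per list and array. Adipocyte markers lie between 11.3 and 12.9 on every array, endothelial markers are lowest on the white arrays, and macrophage markers differ between the GFP array (11.4) and the LacZ array (8.81).

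The 2 hydroxylase genes are set side by side because Tph2 spanned 8.14 log2 units over the arrays, the widest range of the members, and Tph1 spanned 0.84. The sequences are the 250 bases before the annotated start of each gene, from RefSeq (GRCm38.p6), read 5′ to 3′ on the minus strand. The Tph2 stretch is chr10:115185023-115185272 and the Tph1 stretch chr7:46672538-46672787. Capitals mark the match to a searched motif.
Tph2: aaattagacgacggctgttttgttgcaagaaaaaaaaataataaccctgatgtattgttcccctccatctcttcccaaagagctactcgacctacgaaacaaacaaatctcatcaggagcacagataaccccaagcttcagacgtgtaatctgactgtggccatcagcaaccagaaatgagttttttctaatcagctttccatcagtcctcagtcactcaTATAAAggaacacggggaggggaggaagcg
Tph1: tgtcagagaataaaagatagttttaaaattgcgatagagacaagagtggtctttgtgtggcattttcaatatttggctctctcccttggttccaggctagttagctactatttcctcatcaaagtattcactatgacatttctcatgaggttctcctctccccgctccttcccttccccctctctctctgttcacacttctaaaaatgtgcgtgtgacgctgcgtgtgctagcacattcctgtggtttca
The motifs searched on both strands were the TATA box TATAAA, the CCAAT box CCAAT, the GC box GGGCGG and the E-box CANNTG. The nuclear receptor half-site AGGTCA and the C/EBP-type motif TTGCNNAA were searched likewise. The Tph2 stretch held 1 match, a TATA box from 30 to 25 bases before the start, and the Tph1 stretch held none of these letters. Of all 32851 promoters searched, 12.4% held the TATA box letters in the same window, 33.9% the CCAAT box and 32.7% the GC box. The E-box letters were held by 66.2%, the half-site by 14.02% and the C/EBP-type motif by 9.56%. A match describes letters and is no evidence of a bound factor, and the arrays did not measure promoter activity.

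Among the synthesis genes, Tph2 stood apart: it was abundant in white adipocytes, intermediate in brown adipocytes and near the low end of the scale in bone marrow-derived adipocytes. Its log2 expression was 3.26 (GFP) and 3.48 (LacZ) on bone marrow-derived arrays, 11.40 and 9.02 on white arrays and 6.35 and 5.68 on brown arrays. The 3 groups did not overlap. The smallest gap was 2.20, between the higher bone marrow-derived array and the lower brown array, and the largest 5.55, between the higher bone marrow-derived and the lower white array. The lower quartile of all probe sets ran from 3.41 to 3.55 over the arrays, and the GFP value lay below it while the LacZ value lay just above it. Group means were 3.37 ± 0.15 in bone marrow-derived, 10.21 ± 1.68 in white and 6.01 ± 0.48 in brown arrays (SD, n = 2 each).

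The mean difference in Tph2 was -6.84 on the log2 scale for bone marrow-derived minus white, or 115-fold lower in bone marrow-derived arrays. It was -2.65 for bone marrow-derived minus brown, or 6.26-fold lower, and 4.20 for white minus brown, or 18.4-fold higher in white arrays. Because the bone marrow-derived values lay near background, where the array scale is compressed, the differences that involve them may understate the true fold. With any 1 array left out the difference from white ran from -8.04 (without white replicate 2) to -5.65 (without white replicate 1), since the white arrays were 2.38 log2 units apart. White minus brown ran from 3.01 without white replicate 1 to 5.39 without white replicate 2.

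Mast cells are known to store serotonin in rodents, and the 11 measured mast cell markers went different ways. The proteases Cpa3, Cma1, Mcpt4 and Tpsb2 were highest on white replicate 1, the array with the highest Tph2 value. Cma1 stood at 3.48 and 3.86 on bone marrow-derived arrays, 6.41 and 4.68 on white arrays and 3.54 and 4.20 on brown arrays. Cma1, Mcpt4 and Tpsb2 were also higher on white replicate 2 than on any bone marrow-derived or brown array, at 4.68, 3.69 and 4.59. Hdc, Kit and Gata2 were instead lowest on the white arrays. Endothelial markers were lowest there too, at list means of 8.38 and 7.36, and the part of endothelial RNA in these genes was not tested. Kit stood at 7.98 and 9.65 on bone marrow-derived arrays, 5.34 and 4.99 on white arrays and 7.25 and 7.36 on brown arrays. The other 4, Tpsab1, Fcer1a, Ms4a2 and Mrgprb1, lay below the lower quartile on all 6 arrays. The list averaged 4.41 and 4.75 on bone marrow-derived arrays, 4.83 and 4.08 on white arrays and 4.43 and 4.57 on brown arrays, with 6 and 6, 4 and 4, and 6 and 5 of its genes below the lower quartile. These examples were chosen after their values were seen, and the part of mast cell RNA in Tph2 was not tested.

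The 9 measured neuron and Schwann cell markers had list means from 4.32 to 4.75 over the arrays, in which opposite movements of single genes cancel. S100b stood at 5.11 and 4.10 on bone marrow-derived arrays, 7.73 and 7.91 on white arrays and 11.23 and 10.72 on brown arrays. Uchl1 ran the other way, at 8.49 and 10.09, 7.64 and 5.90, and 4.66 and 4.34 in the same order of groups. The sympathetic enzyme Th stayed between 2.95 and 3.48 on every array. These 3 were chosen after their values were seen, and the part of nerve RNA in the members was not tested.

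Tph1, the peripheral hydroxylase, was low on all arrays and did not pass the test in any comparison. Its log2 expression was 3.92 and 3.52 on bone marrow-derived arrays, 4.05 and 4.36 on white arrays and 4.16 and 4.24 on brown arrays. The bone marrow-derived arrays were the 2 lowest, yet all 6 values lay within 0.84 log2 units. The log2 difference was -0.49 ± 0.21 for bone marrow-derived against white (SE from limma, 95% interval -1.03 to 0.06, adjusted p = 0.165). Against brown it was -0.48 ± 0.21 (interval -1.02 to 0.06, adjusted p = 0.179), and for white against brown it was 0.01 ± 0.21 (interval -0.53 to 0.55, adjusted p = 0.989). Here and below, tests are two-sided and adjusted over all 17720 genes with the Benjamini-Hochberg method at a threshold of 0.05.

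Ddc, which turns 5-hydroxytryptophan into serotonin, lay below the lower quartile on all 6 arrays with both of its probe sets. The main probe set read 2.53 and 2.22 on bone marrow-derived arrays, 2.42 and 2.40 on white arrays and 2.43 and 2.55 on brown arrays, and the other read 2.26 and 2.29, 2.26 and 2.25, and 2.48 and 2.46. The white arrays, where Tph2 was most abundant, thus gave Ddc values as low as those of the other groups. The log2 difference was -0.04 ± 0.18 for bone marrow-derived against white (95% interval -0.49 to 0.41, adjusted p = 0.905), -0.12 ± 0.18 against brown (interval -0.57 to 0.33, adjusted p = 0.669) and -0.08 ± 0.18 for white against brown (interval -0.53 to 0.37, adjusted p = 0.817). Near background a difference in Ddc could not have been measured well, and the files hold no detection calls.

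**Figure D2:**
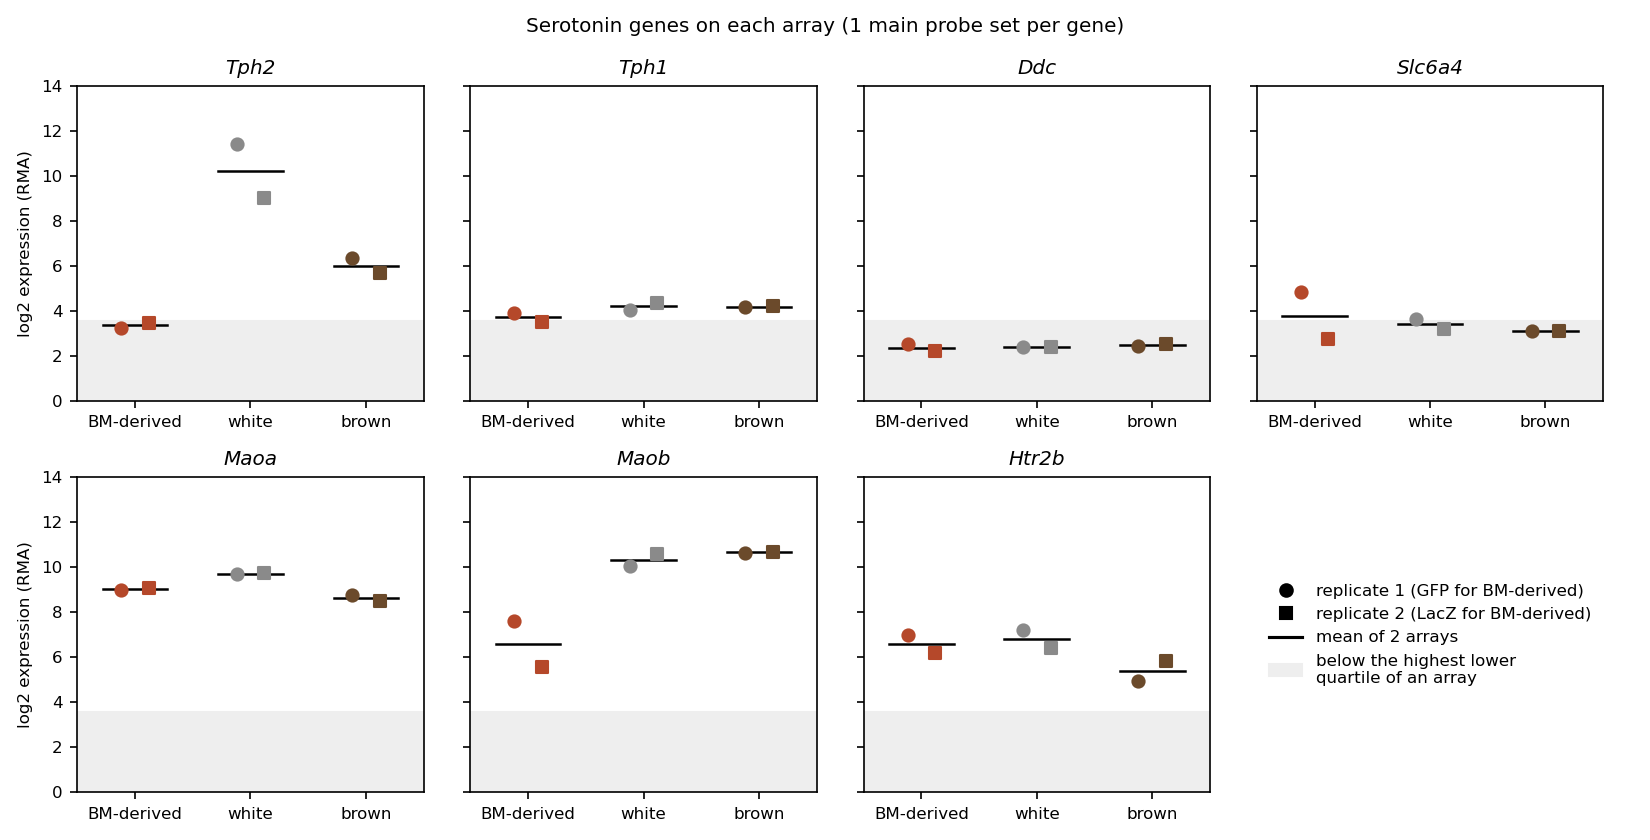
Log2 expression (vertical axis, RMA scale) of 7 serotonin genes on each array, with bone marrow-derived arrays on the left, white in the middle and brown on the right, circles for replicate 1, squares for replicate 2 and a line at the mean of 2 arrays. Grey marks values below 3.55, the highest lower quartile of an array. Tph2 falls into 3 separate levels, Maob is low on the bone marrow-derived arrays alone, and Ddc lies in the grey zone throughout.

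Slc6a4, the serotonin transporter, was low except on the GFP array. It read 4.86 (GFP) and 2.73 (LacZ) on bone marrow-derived arrays, 3.66 and 3.21 on white arrays and 3.10 and 3.11 on brown arrays, and 4 of these 6 values lay below the lower quartile. The bone marrow-derived arrays were the highest and the lowest of all, so this group spans the others. The log2 difference was 0.37 ± 0.68 against white (95% interval -1.35 to 2.08, adjusted p = 0.744) and 0.69 ± 0.68 against brown (interval -1.02 to 2.41, adjusted p = 0.507). White against brown gave 0.33 ± 0.68 (interval -1.39 to 2.04, adjusted p = 0.806). The sign depended on the bone marrow-derived array used. Without the LacZ array the difference was 1.43 against white and 1.76 against brown (adjusted p = 0.0294 and 0.0215). With the LacZ array alone in the group the differences were -0.70 and -0.37 (adjusted p = 0.126 and 0.381). A lone bone marrow-derived array is assumed in these fits to vary like the white and brown arrays, most of which lay near background for Slc6a4, although the GFP and LacZ values were 2.13 apart. Macrophage markers also stood higher on the GFP array (11.4) than on the LacZ array (8.81), and their part in the Slc6a4 value was not tested. Platelets carry this transporter, and 10 platelet and megakaryocyte markers averaged 5.53 (GFP) and 5.44 (LacZ) on bone marrow-derived arrays, 5.07 and 4.83 on white arrays and 4.82 and 4.92 on brown arrays. Its genes went different ways between the GFP and LacZ arrays, with Pf4 at 12.8 and 10.3, Treml1 at 5.99 and 4.75 and Itgb3 at 6.08 and 7.73, examples chosen after their values were seen. The part of platelet RNA in Slc6a4 was not tested.

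Of the breakdown enzymes, Maob was far lower in bone marrow-derived adipocytes than in white and brown adipocytes. The Maoa differences were smaller. Relative to white the fall passed on the main probe set alone, and relative to brown the main probe set did not pass. Both genes lie on the X chromosome with 0 annotated genes between them. Maob read 7.63 (GFP) and 5.56 (LacZ) on bone marrow-derived arrays, 10.07 and 10.61 on white arrays and 10.65 and 10.70 on brown arrays. The bone marrow-derived arrays did not overlap with the others, and white and brown arrays lay close together. Maob fell 13.4-fold relative to white (log2 difference -3.75 ± 0.67, 95% interval -5.44 to -2.06, adjusted p = 0.0161). Relative to brown it fell 17.0-fold (-4.08 ± 0.67, interval -5.77 to -2.39, adjusted p = 0.0166). White against brown gave -0.33 ± 0.67 (interval -2.03 to 1.36, adjusted p = 0.797).

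Both bone marrow-derived arrays lay below white and brown, by different amounts. The LacZ array alone gave -4.78 against white and -5.12 against brown (adjusted p = 0.004 and 0.00366), and the GFP array alone -2.71 and -3.05 (adjusted p = 0.0138 and 0.0105). In these fits the spread comes from the white and brown arrays only, and the lone bone marrow-derived array is assumed to vary like them, so the p-values do not test each array singly. The call against white was lost without white replicate 2 (-3.48, adjusted p = 0.0793) or without either brown array (-3.75, adjusted p = 0.0507 each), which changes the estimate of the spread alone. The call against brown was lost without brown replicate 1 (-4.11, adjusted p = 0.0961) or brown replicate 2 (-4.06, adjusted p = 0.117). Adipocyte markers ran the same way on the bone marrow-derived arrays, at 11.8 (GFP) and 11.3 (LacZ) against 12.7 and 12.9 on white arrays, with a median log2 difference of -1.30 over the list and 3 of 8 lower by the test. The genes of the list fell by unequal amounts. Means of bone marrow-derived and white arrays were 13.45 and 13.47 for Fabp4, 11.7 and 11.8 for Pparg and 10.31 and 12.98 for Lep, examples chosen after their values were seen. Relative to brown the list median was -0.93, again with 3 of 8 lower. Of all genes, 13.6% were called lower relative to white and 11.7% relative to brown. The part of the adipocyte markers in the Maob difference was not tested.

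Maoa was well expressed in all 3 groups, with the highest values in white adipocytes. Its main probe set read 9.01 (GFP) and 9.10 (LacZ) on bone marrow-derived arrays, 9.70 and 9.75 on white arrays and 8.77 and 8.51 on brown arrays. The groups did not overlap, and their spread was small. Maoa fell 1.59-fold in bone marrow-derived relative to white arrays (-0.67 ± 0.17, 95% interval -1.10 to -0.24, adjusted p = 0.0412) and was 2.13-fold higher in white than in brown arrays (1.09 ± 0.17, interval 0.66 to 1.52, adjusted p = 0.0232). Against brown the bone marrow-derived difference of 0.42 ± 0.17 did not pass (interval -0.01 to 0.85, adjusted p = 0.144).

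The 2 Maoa probe sets disagreed on the comparison with white adipocytes. The second one read 7.74 and 7.61 on bone marrow-derived arrays, 7.59 and 7.94 on white arrays and 6.28 and 6.82 on brown arrays, so bone marrow-derived and white overlapped on it. In a fit over 33565 probe sets it gave -0.09 ± 0.25 against white (adjusted p = 0.840), 1.13 ± 0.25 against brown (adjusted p = 0.0354) and 1.21 ± 0.25 for white against brown (adjusted p = 0.0467). White above brown thus held on both probe sets. The fall relative to white on the main probe set lost its call with any 1 of the 6 arrays left out (adjusted p = 0.0723 to 0.166). The difference between white and brown lost it without any white or brown array (adjusted p = 0.0836 without white replicate 1, 0.0898 without white replicate 2, 0.129 without brown replicate 1 and 0.132 without brown replicate 2).

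Htr2b, a Gq-coupled serotonin receptor, had moderate values and did not pass in any comparison. It read 6.98 and 6.18 on bone marrow-derived arrays, 7.20 and 6.44 on white arrays and 4.95 and 5.84 on brown arrays. Both brown arrays were below all others, while bone marrow-derived and white arrays overlapped. The log2 difference was -0.24 ± 0.46 against white (95% interval -1.39 to 0.92, adjusted p = 0.753), 1.18 ± 0.46 against brown (interval 0.03 to 2.34, adjusted p = 0.133) and 1.42 ± 0.46 for white against brown (interval 0.26 to 2.58, adjusted p = 0.129). The intervals against brown exclude 0 before adjustment, and the adjusted p-values do not pass.

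**Figure D3:**
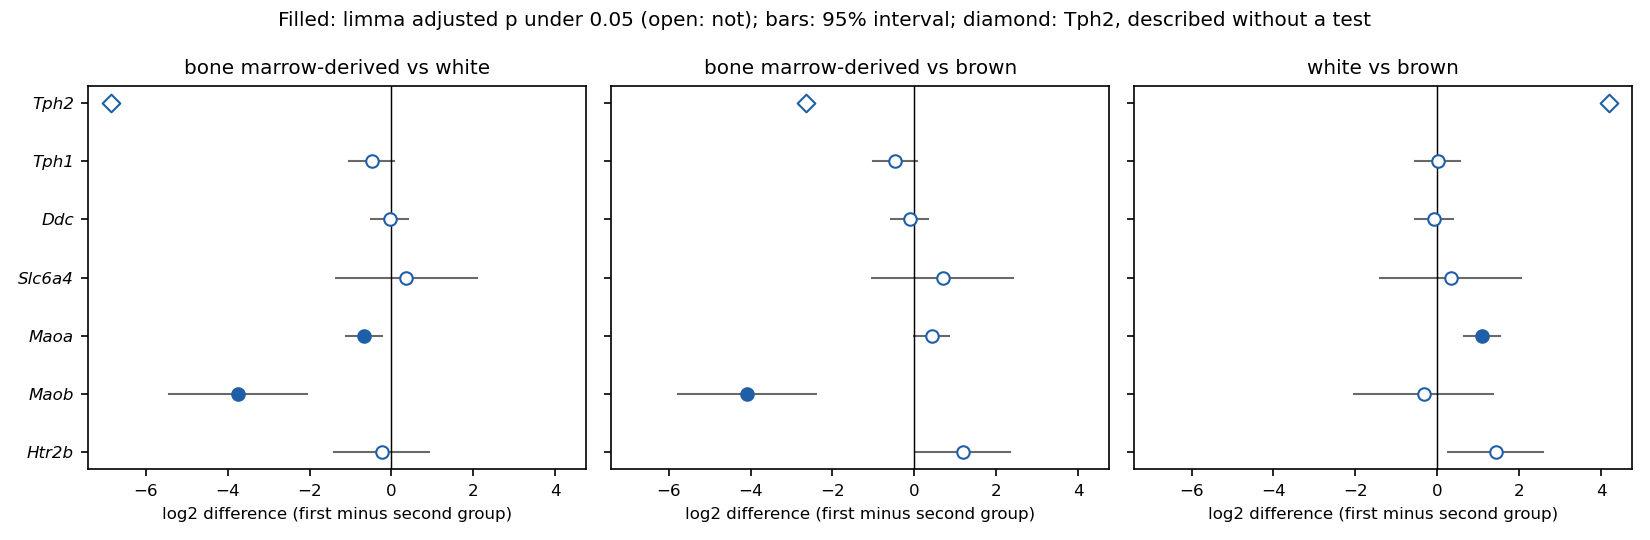
Log2 difference of each serotonin gene (horizontal axis, first minus second group named above each panel), with 95% intervals from limma and filled circles where the adjusted p was under 0.05. The diamonds give Tph2 without an interval. Maob lies at -3.75 and -4.08 in the panels with bone marrow-derived arrays and at -0.33 between white and brown.

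The order of the groups thus differed from gene to gene. For Tph2 it was white, brown, bone marrow-derived, with gaps between all neighbours. For Maob, brown and white were neighbours whose arrays lay 0.04 apart at their nearest, and bone marrow-derived came last. For Maoa the order on the main probe set was white, bone marrow-derived, brown, and the nearest bone marrow-derived and brown arrays were 0.25 apart. That last difference did not pass the test, and on the second probe set bone marrow-derived and white overlapped. For Htr2b, white and bone marrow-derived did not separate and brown was lowest, though no comparison passed.

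Relative to white, 2 of the 6 tested members were lower in bone marrow-derived arrays (Maoa and Maob) and 0 higher, where limma called 25.8% of all genes, 12.2% as higher and 13.6% as lower. Relative to brown, 1 of 6 was lower (Maob) and 0 higher, where 20.4% of all genes were called, 8.71% as higher and 11.7% as lower. Between white and brown arrays 1 of 6 was higher (Maoa) and 0 lower, where 9.21% of all genes were called, 3.87% as higher and 5.34% as lower. At an unadjusted limma p under 0.05 there were 2 of 6 members in each comparison. Of all 17720 genes, 6869, 6364 and 4625 had such a p in the same order of comparisons. The median log2 difference over the 6 members was -0.36, 0.15 and 0.17, beside -0.07, 0.02 and 0.02 over all genes. With so few members these shares do not set the group apart from the rest of the arrays. The comparisons share arrays and are not independent of each other. When arrays were centred on their medians, the typical gene shifted by -0.168 against white and -0.194 against brown, and the share of calls that were higher in bone marrow-derived arrays was 36.6% in place of 47.4% against white and 28.5% in place of 42.7% against brown.

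Beyond the members, 66 genes of related steps were read from lists. Relative to white adipocytes 6 rose and 10 fell in bone marrow-derived adipocytes, relative to brown 4 rose and 6 fell, and between white and brown 5 were higher and 5 lower in white. The shares called, 16, 10 and 10 of 66, stand beside the 25.8%, 20.4% and 9.21% of all genes given above. The counts of each list below stand beside the same shares, and no list was tested against them.

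Among 12 other serotonin receptors, Htr7, which couples to Gs and raises cyclic AMP, was the 1 that passed. It read 5.90 and 5.27 on bone marrow-derived arrays, 3.57 and 3.35 on white arrays and 2.73 and 3.44 on brown arrays. Htr7 rose relative to white (log2 difference 2.12 ± 0.33, adjusted p = 0.0115) and relative to brown (2.49 ± 0.33, adjusted p = 0.00958), and both bone marrow-derived arrays were above all others. The list means of smooth muscle and pericyte markers and of fibroblast and preadipocyte markers were also highest on both bone marrow-derived arrays. The part of such RNA in Htr7 was not tested. On 3 of the 4 white and brown arrays Htr7 lay below the lower quartile, near background, so these differences may understate the change. The median over the receptor list was -0.01 against white and 0.06 against brown, and between white and brown 0 of 12 passed in limma, also at an unadjusted p under 0.05, with Htr7 at 0.37 ± 0.33. The Htr7 call was lost without white replicate 2 against white (adjusted p = 0.061) and without brown replicate 1 or 2 against brown (adjusted p = 0.0636 and 0.0515).

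Tetrahydrobiopterin, the cofactor that tryptophan hydroxylases need, is made by Gch1, Pts and Spr and recycled by Pcbd1 and Qdpr. Of 7 measured genes of this list 1 rose and 2 fell relative to white, 1 fell relative to brown and 1 was higher in white than in brown, with list medians of -0.27, -0.30 and -0.29. Pcbd1 read 5.93 and 6.47 on bone marrow-derived arrays, 10.40 and 10.52 on white arrays and 6.00 and 6.45 on brown arrays, so that white stood alone. It fell 19.2-fold relative to white (-4.26 ± 0.26, adjusted p = 0.00352), a call that held with each array left out, and was 18.8-fold higher in white than in brown (4.24 ± 0.26, adjusted p = 0.0049). Pts fell relative to white (-1.31 ± 0.34, adjusted p = 0.0442) and brown (-2.20 ± 0.34, adjusted p = 0.0143), and Gch1, the first enzyme, rose relative to white (1.85 ± 0.49, adjusted p = 0.045). The Gch1 call remained without white replicate 1 alone and was lost in the other 5 such fits (adjusted p = 0.0871 to 0.113), and the Pts call against white remained without the GFP array alone (otherwise 0.0882 to 0.182) and was lost with the mean of its probe sets (-0.91, adjusted p = 0.112). Against brown the Pts call was lost without brown replicate 1 (0.0927) or 2 (0.0866), and so was the Pcbd1 call between white and brown (0.0703 and 0.0622).

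Single genes listed for the uptake of tryptophan or other large neutral amino acids differed by group as well, and uptake itself was not measured. Of 8 genes 2 fell relative to white, 2 rose and 2 fell relative to brown, and 2 were higher and 1 lower in white than in brown, with medians of -0.24, 0.65 and 1.46. Of all genes, 25.8%, 20.4% and 9.21% were called in the same order of comparisons. The large neutral amino acid carrier Slc7a5 read 6.81 and 7.28 on bone marrow-derived arrays, 7.33 and 7.32 on white arrays and 4.37 and 3.93 on brown arrays. It was 7.43-fold higher in bone marrow-derived than in brown arrays (2.89 ± 0.24, adjusted p = 0.00382), a call that held with each array left out, and 9.01-fold higher in white than in brown (3.17 ± 0.24, adjusted p = 0.00666). The aromatic amino acid carrier Slc16a10 read 7.62 and 5.28 on bone marrow-derived arrays, 10.12 and 9.78 on white arrays and 8.28 and 8.77 on brown arrays, and fell relative to white (-3.50 ± 0.75, adjusted p = 0.0263). Slc43a1 fell relative to white too (-2.61 ± 0.28, adjusted p = 0.00568, held with each array left out) and was 2.83-fold higher in white than in brown (SE 0.28 on the log2 scale, adjusted p = 0.037). Relative to brown, Slc7a7 rose (2.78 ± 0.45, adjusted p = 0.016) and the neutral amino acid carrier Slc6a19 fell (-2.69 ± 0.31, adjusted p = 0.00714, held with each array left out), and Slc6a19 was lower in white than in brown (-2.53 ± 0.31, adjusted p = 0.0148). Slc6a19 read 2.82 and 3.16 on bone marrow-derived arrays, 3.10 and 3.21 on white arrays and 6.09 and 5.26 on brown arrays, and its bone marrow-derived and white values all lay below the lower quartile, near background, so these differences may understate the change. The Slc16a10 call was lost without either white array (adjusted p = 0.0908 and 0.0933) or either brown array (0.0684 each), the Slc7a7 call without brown replicate 1 (0.0804) or 2 (0.12).

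Of 6 vesicular and low-affinity monoamine transporters, Slc22a2, an organic cation transporter that accepts serotonin, fell relative to white and to brown. It read 4.36 and 3.61 on bone marrow-derived arrays, 6.59 and 6.65 on white arrays and 7.43 and 6.79 on brown arrays. Its difference was -2.64 ± 0.34 against white (adjusted p = 0.00736, held with each array left out) and -3.12 ± 0.34 against brown (adjusted p = 0.00613, lost without brown replicate 1 at 0.0529). None of the others passed, and list medians were -0.32, -0.01 and -0.01. The nearest to passing was Slc18a1 against white (-1.62 ± 0.45, adjusted p = 0.0527 in limma). Against white the list count rose from 1 to 2 with limma-trend, median centring, quantile normalization or the filter at a mean of 4. Between white and brown 0 of 6 passed in limma, also at an unadjusted p under 0.05, and the largest difference was in the noradrenaline transporter Slc6a2 (1.31 ± 0.81, adjusted p = 0.378).

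Enzymes that act beside or after monoamine oxidase and branches from serotonin gave mixed results. Of 9 measured genes 2 rose and 2 fell relative to white, 1 rose relative to brown, and 2 were higher and 1 lower in white than in brown, with medians of -0.42, 0.19 and 0.49. The amine oxidase Aoc3, abundant on the surface of adipocytes, read 11.76 and 11.38 on bone marrow-derived arrays, 12.65 and 12.98 on white arrays and 12.15 and 12.40 on brown arrays and fell relative to white (-1.24 ± 0.23, adjusted p = 0.0166). The aldehyde dehydrogenase Aldh1a1 fell relative to white (-2.94 ± 0.28, adjusted p = 0.0043) and was higher in white than in brown (2.26 ± 0.28, adjusted p = 0.0147). Ahr, a receptor for tryptophan-derived ligands, rose 9.52-fold relative to white (3.25 ± 0.50, adjusted p = 0.0113) and was lower in white than in brown (-2.85 ± 0.50, adjusted p = 0.0313). The methyltransferase Inmt was 21.7-fold higher in white than in brown (4.44 ± 0.72, adjusted p = 0.025), and the sulfotransferase Sult1a1 rose relative to brown (0.80 ± 0.17, adjusted p = 0.0313). Calls relative to white held with each array left out for Ahr and Aldh1a1, and the Aoc3 call was lost without the LacZ array (adjusted p = 0.0507) or white replicate 2 (0.0836). The Sult1a1 call was lost without either bone marrow-derived array (0.068 and 0.0787) or either brown array (0.128 and 0.169), and after median centring (0.60, adjusted p = 0.0771).

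In the kynurenine branch, which competes for tryptophan, 1 of 11 measured genes rose and 2 fell relative to white, 2 fell relative to brown, and 2 were lower in white than in brown, with medians of -0.14, 0.02 and 0.20. Ido1, which opens the tryptophan ring, read 5.13 and 6.95 on bone marrow-derived arrays, 3.79 and 3.52 on white arrays and 7.004 and 6.49 on brown arrays. It rose 5.21-fold relative to white (2.38 ± 0.60, adjusted p = 0.0405) and was lower in white than in brown (-3.09 ± 0.60, adjusted p = 0.0396). The kynurenine aminotransferases Kyat3 (-2.14 ± 0.24, adjusted p = 0.00609) and Kyat1 (-1.26 ± 0.25, adjusted p = 0.0211) fell relative to white, and Kyat3 (-2.90 ± 0.24, adjusted p = 0.00379) and Kyat1 (-2.46 ± 0.25, adjusted p = 0.00545) fell relative to brown. Between white and brown, Kyat1 passed narrowly (-1.20 ± 0.25, adjusted p = 0.0467) and lost the call with limma-trend (0.0515), median centring (0.0567), quantile normalization (0.0526), the mean of its probe sets (0.0558) and no moderation (0.163). The Ido1 call relative to white was lost without white replicate 1 (adjusted p = 0.104) or 2 (0.156) or either brown array (0.0906 each), and the Kyat1 call without the GFP array (0.0511), white replicate 2 (0.101) or either brown array (0.0561 each). Against brown, the Kyat3 call was lost without brown replicate 2 (0.0502) and the Kyat1 call without brown replicate 1 (0.0557) or 2 (0.0539).

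Among 10 genes of Gq signalling and adaptor proteins 1 rose and 1 fell relative to white, and 1 was lower in white than in brown, with medians of 0.10, 0.19 and 0.21. Plcb4, a phospholipase C driven by Gq, rose 5.96-fold relative to white (2.57 ± 0.23, adjusted p = 0.00392, held with each array left out) and was lower in white than in brown (-2.03 ± 0.23, adjusted p = 0.0123). Camk2d fell relative to white (-0.97 ± 0.17, adjusted p = 0.0141), a call lost without either white array (0.0585 and 0.0681) and with the mean of all its probe sets (-0.13, adjusted p = 0.621). Relative to brown 0 of 10 passed in limma, where 1 had an unadjusted p under 0.05 and the largest difference was in Arrb2 (1.56 ± 0.75, adjusted p = 0.204). Of the 3 measured catecholamine genes, Th, Dbh and Pnmt, 0 passed in limma in any comparison, also at an unadjusted p under 0.05. The largest differences there were -0.31 ± 0.21 (Dbh, against white), 0.23 ± 0.15 (Pnmt, against brown) and 0.33 ± 0.21 (Dbh, white against brown), and list medians were -0.10, 0.05 and 0.16. Ahr, Ido1 and Plcb4 were each high on bone marrow-derived and brown arrays and low on white arrays, as endothelial markers were (11.4 and 11.96, 8.38 and 7.36, and 10.9 and 10.4), and the part of endothelial RNA in them was not tested.

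Of the calls between white and brown adipocytes, 10 pathway genes in all, 0 remained in limma when either brown array was left out, where 14 and 12 had an unadjusted p under 0.05. Calls over all genes then numbered 7 without brown replicate 1 and 5 without brown replicate 2, in place of 1632. Leaving out white replicate 1 or 2 left 837 and 732, and 6 pathway genes each time. Among the genes named here it ended the calls of Ido1 (adjusted p = 0.116 and 0.133), Kyat1 (0.17 and 0.0898), Slc43a1 (0.0694 and 0.128) and Slc6a19 (0.0548 and 0.0535) with either white array, and that of Aldh1a1 without white replicate 2 (0.0531).

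**Figure D4:**
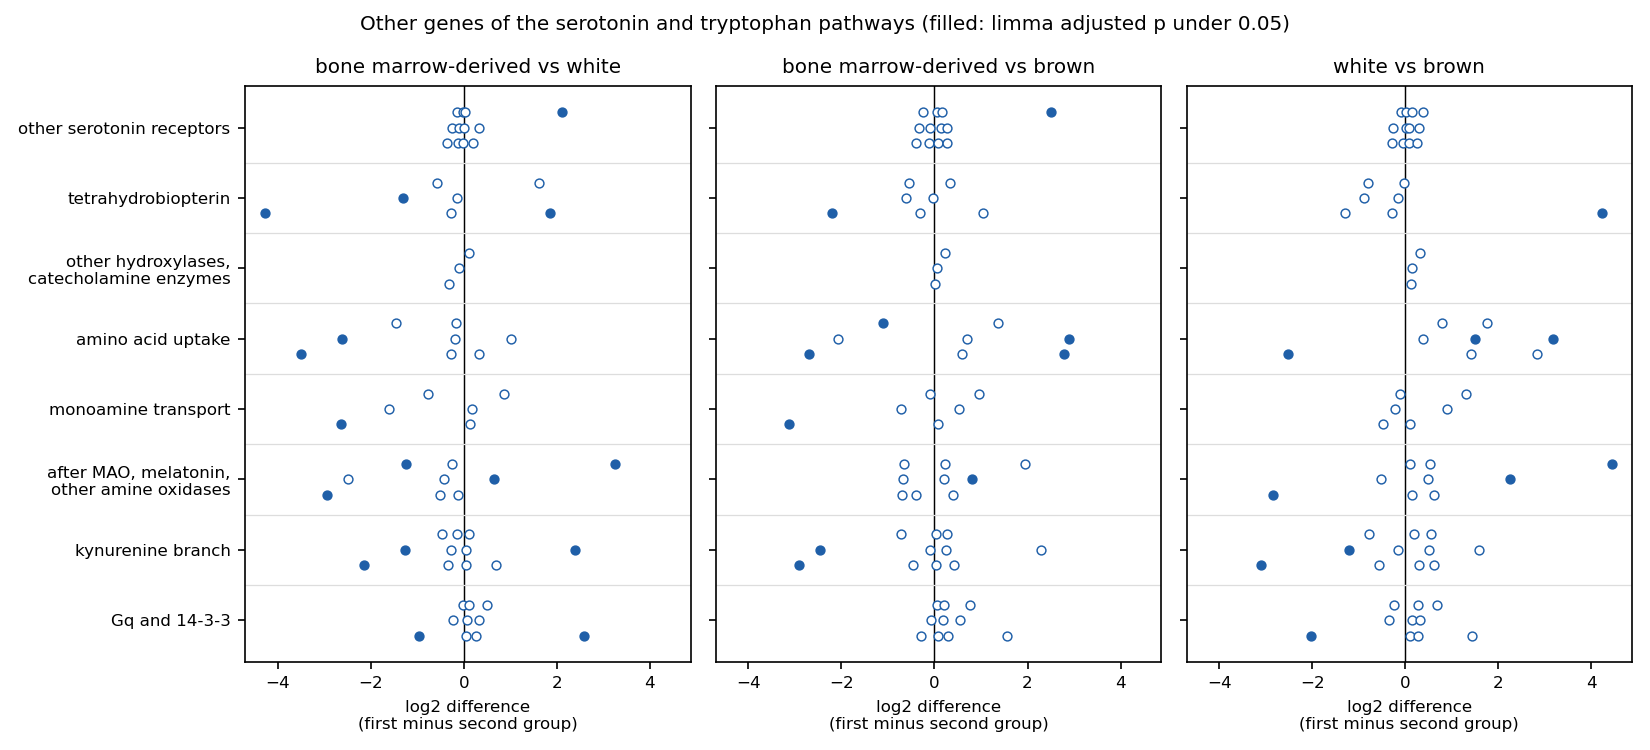
Log2 differences (horizontal axis, first minus second group named above each panel) of 66 genes of related steps, grouped by list, with 1 point per gene, filled where limma's adjusted p was under 0.05. The vertical offset within a list has no meaning. Most receptors lie near 0 with Htr7 alone to the right in the panels with bone marrow-derived arrays, and Pcbd1 marks the extremes of the tetrahydrobiopterin row at -4.26 and 4.24.

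The genes whose pattern over the 6 arrays was most like that of Tph2 were found by the root mean square difference between profiles centred on their own mean, a description with no test. The nearest was Crtac1 (0.91 log2 units, Pearson r = 0.97 over 6 arrays), followed by Lipf (0.95), Prkag3 (0.96), Bcat1 (1.03) and Ugt3a2 (1.13). Lipf, named for gastric lipase, read 3.16 and 3.58 on bone marrow-derived arrays, 8.95 and 7.18 on white arrays and 4.40 and 4.47 on brown arrays. Bcat1, which starts the breakdown of branched-chain amino acids in the cytosol, read 2.67 and 3.69, 10.82 and 9.65, and 8.21 and 7.65 in the same order. All 5 genes were highest on the white arrays and lowest on the bone marrow-derived arrays, and all but Prkag3 were higher on white replicate 1 than on white replicate 2, as Tph2 was. A difference of 0.91 or more is large, so no gene followed Tph2 closely in size.

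Maob had much closer company. Nrg4, which encodes a secreted neuregulin of fat, differed from its centred profile by 0.16 log2 units (r = 0.998), Dpyd, which breaks down pyrimidines, by 0.18 (r = 0.996) and A530053G22Rik by 0.18 (r = 0.998). Nrg4 read 8.87 (GFP) and 6.74 (LacZ) on bone marrow-derived arrays, 11.55 and 11.79 on white arrays and 12.23 and 12.19 on brown arrays, so the LacZ array was the lowest for it as for Maob. Slc6a4, which spans 2.13 log2 units, was most like Arsj (0.11), Gm36723 (0.13) and Malt1 (0.14), which were likewise highest on the GFP array. Htr2b, which spans 2.25, was most like Guca1a (0.14), Nos1 (0.22) and Mms22l (0.25). These genes were picked from 17720 over only 6 arrays, and the likeness was not tested.

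**Figure D5:**
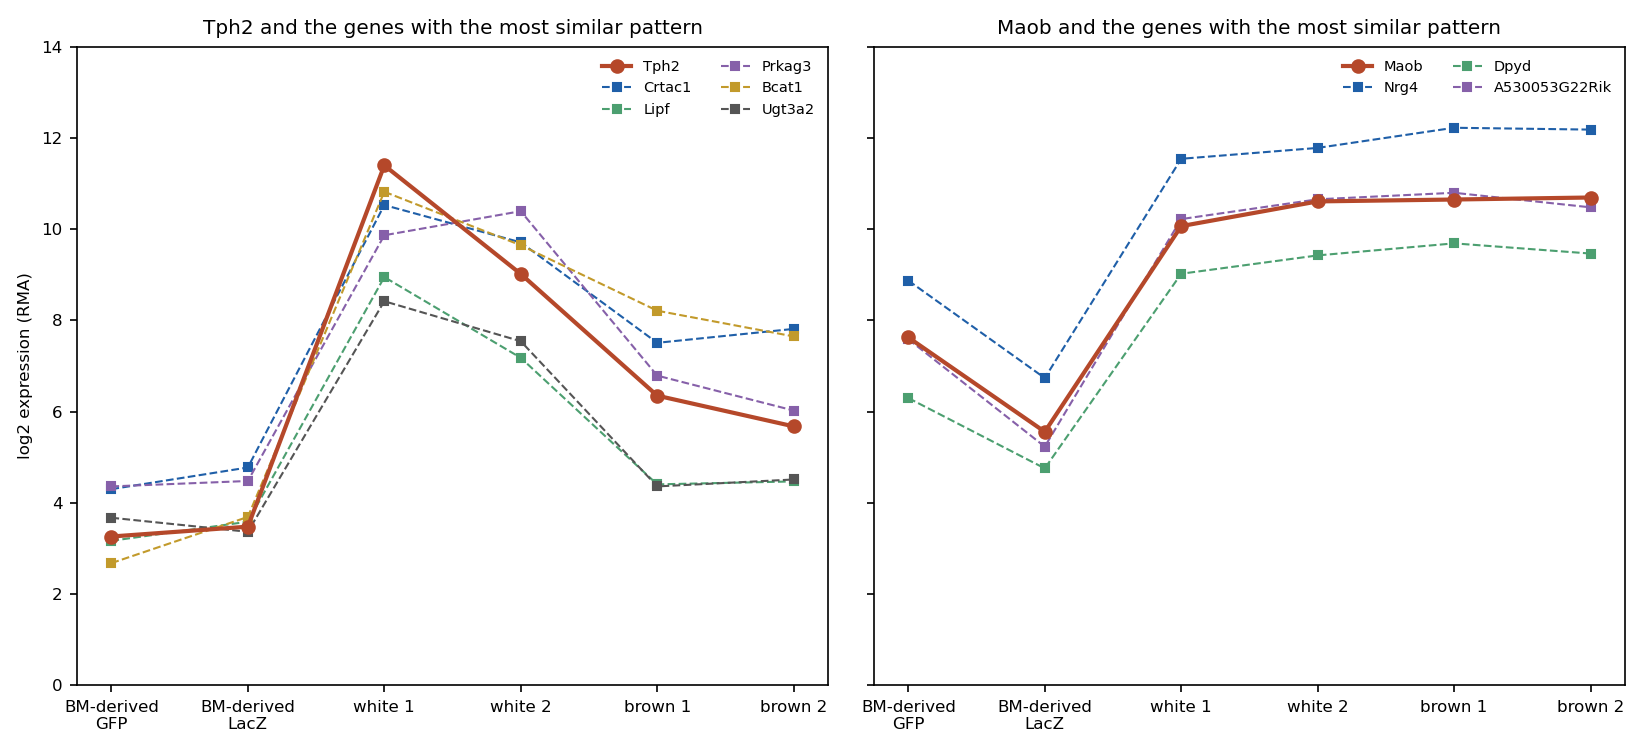
Log2 expression (vertical axis, RMA scale) on the 6 arrays (horizontal axis) of Tph2 with its 5 most similar genes (left) and of Maob with its 3 most similar genes (right), with lines joining arrays for the eye. The Tph2 set peaks on the white arrays and is lowest on the bone marrow-derived arrays, and the Maob set is lowest on the LacZ array.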

How the data were processed

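The authors deposited 1 log2 value for each probe set and array. The submitters' processing notes list RMA (Robust Multi-array Average) and Partek without further detail. The log base is an inference from the range of the values, with array maxima from 13.91 to 13.97. Detection calls do not exist for RMA values, and the few arrays limit the precision.

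The platform annotation gave 1 symbol for 33565 of 43057 probe sets, several for 857, and left 8635 without a name here. Of those with 1 symbol, 33376 matched RefSeq (GRCm38.p6) by gene ID, and 0 symbols were updated. A model of group means over all 6 arrays was fitted to each gene (limma 3.58.1, R 4.3.3), with empirical Bayes moderation (3 residual and 2.35 prior degrees of freedom). The script was tested on simulated data. Named genes are the members, up to 3 called genes per pathway list and comparison by size of difference (otherwise the largest difference, as a value), and the most similar genes of Tph2 (5) and of other members that span at least 2 log2 units (3). Members and lists were chosen with earlier results of these data known. Alternatives were a fit on 4 arrays, no moderation, limma-trend, median centring, quantile normalization, a filter at a mean of 4, the mean of a gene's probe sets, a replicate block and each array left out.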

Additional observations from a re-analysis of the deposited data

How the results depend on the processing

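Groups of 2 arrays limit all calls, and where 1 array is left out, the other array of its group is assumed to vary like the other groups. The unadjusted member counts below stand beside these counts over all 17720 genes at an unadjusted p under 0.05. Against white they were 6035 with 4 arrays and 6008 without moderation, and against brown 5434 without moderation. Against white, the 2 member calls became 0 with 4 arrays or without moderation (2 at an unadjusted p under 0.05 in both fits) and 1 with the mean of a gene's probe sets, and ran from 0 to 2 with an array left out. Genes called, 4579, became 2727 with 4 arrays and 555 without moderation (1749 to 4281 with an array left out), and pathway genes, 16, became 10 and 2 (8 to 15). Against brown, the 1 member call became 0 without moderation (2 at an unadjusted p under 0.05) and 2 with the mean of probe sets (0 to 2 with an array left out). Genes called, 3611, became 961 without moderation (300 to 3121) and pathway genes, 10, became 2 (3 to 11). Between white and brown, without moderation, the 1 member, 1632 genes and 10 pathway genes became 0, 0 and 0 in the linear model, where 1, 3880 and 14 had an unadjusted p under 0.05. With an array left out they ran from 0 to 1, 5 to 2251 and 0 to 14.

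The replicate numbers name no shared animal or day, and the deviations of same-numbered arrays correlated at 0.21 between bone marrow-derived and white, -0.004 between bone marrow-derived and brown and 0.28 between white and brown arrays. With the replicate block the member calls against white became 1, that of Maob, since Maoa lost its call (adjusted p = 0.0685). The block also ended the calls of Ido1 (0.0644) and Pts (0.0588) against white, Sult1a1 against brown (0.0504), and Ido1 (0.0671), Kyat1 (0.0657) and Slc43a1 (0.0676) between white and brown, and Arrb2 passed against brown (1.56, adjusted p = 0.0409). The Tph2 differences kept their sign in all 14 alternatives. With an array left out they could not do otherwise, because the 3 groups did not overlap, so this adds no support. Of the differences of members and named pathway genes under all alternatives, 690 kept their direction and side of the threshold, 141 lost the call, 4 gained one and 10 changed sign. These counts hold repeats, since leaving out either array of the group not compared gave the same result as the fit on 4 arrays. The 690 include those of Tph2, which has no test. For Tph2 the rule was the same direction and a shift smaller than its largest group SD. The differences that changed sign are given here, and none of them passed with its sign turned. Ddc against white was 0.0237 with quantile normalization and ran from -0.194 (without the GFP array) to 0.12 (without the LacZ array) with an array left out, and against brown from -0.276 to 0.0365 (same arrays). Slc6a4 ran from -0.70 (without the GFP array) to 1.43 (without the LacZ array) against white and from -0.37 to 1.76 against brown. Htr2b against white ran from -0.64 (without the GFP array) to 0.16 (without the LacZ array), with 0.14 when white replicate 1 was left out. Tph1 between white and brown was -0.0185 with median centring, and with an array left out ran from -0.15 (without white replicate 2) to 0.16 (without white replicate 1), with -0.03 when brown replicate 1 was left out. Ddc and Slc6a4 have no value under the filter. The causes were not tested, beyond the smaller number of arrays or the unshared spread that these fits impose.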
